A study of Mus musculus with 6 samples.

Results

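Levels of 10 chemokine ligand genes (Ccl2, Ccl7, Ccl20, Cxcl1, Cxcl2, Cxcl5, Cxcl10, Cxcl16, Cxcl12 and Cx3cl1) were compared across 3 groups of cultured mouse liver progenitor-like cells (LPCs). The genes were taken by symbol, and each of the 10 was present in all 6 count tables, out of 20571 symbols that the tables share. The groups are named for their source and have 2 libraries of polyadenylated RNA each. Bec_LPCs came from wild-type C57BL/6 mice: pieces of intrahepatic bile duct were plated in matrigel, grown for 1 to 2 passages until a monolayer had formed, and sorted for Epcam. Hep_LPCs came from hepatocytes of ROSA26tdTomato mice on C57BL/6 that had received AAV8-TBG-Cre, a virus whose Cre is driven by a hepatocyte promoter. NPC_LPCs came from the non-parenchymal fraction, which is the liver without its hepatocytes, of C57BL/6 mice carrying AlbCreERT/R26GFP, an inducible Cre under the albumin promoter with a green fluorescent reporter. All mice were 6 to 8 weeks old, and all cells were kept in TEM (Transition and Expansion Medium). The labels do not state whether Hep_LPCs and NPC_LPCs were sorted on their reporters. Cell source, genotype, virus and the layout of the deposited table vary together, and their parts in a difference cannot be told apart. The same holds for plating in matrigel, passage and the Epcam sort, which are given for Bec_LPCs only.

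Chemokines are small secreted or membrane-bound proteins that draw leukocytes along a concentration gradient through G protein-coupled receptors. In the liver, hepatocytes, bile duct epithelium, stellate cells and endothelium all make some of them. The inflammatory members are switched on by NF-kB after signals such as IL-1, TNF or microbial products, while Cxcl12 is largely made without such a signal.

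Total counts were 17575998 to 22985844 per library, and all 10 genes passed the filter on low counts in each comparison. Levels are given as CPM, counts scaled to library sizes that were adjusted by TMM, in order of replicate number. With n = 2 in a group, both values are printed in place of a mean. Fold changes are log2 values ± SE from edgeR's quasi-likelihood test, and a gene is called where its p, adjusted by Benjamini-Hochberg over all genes tested, is under 0.05. Whether replicates came from separate cultures or animals is not said in the labels; a p-value here reflects no more than the spread between the libraries, which may be technical. That spread was unequal: the chi-square of the replicates' counts per degree of freedom was 5.52 in Bec_LPCs, 92.5 in Hep_LPCs and 111 in NPC_LPCs. Among markers of the labelled epithelial source, Epcam, on which Bec_LPCs were sorted, was at 59.0 and 65.7 CPM in Bec_LPCs and at most 1.84 CPM in the other 4 libraries, and Alb, the hepatocyte product, was at most 2.40 CPM in any library. The keratin Krt7 was also highest in Bec_LPCs, at 298 and 365 CPM, against 109 and 174 CPM in Hep_LPCs. It was at most 17.7 CPM in NPC_LPCs. Krt7 was called higher in Bec_LPCs than in NPC_LPCs (log2 5.1 ± 1.06, adjusted p = 0.0387). It was not called against Hep_LPCs (1.23 ± 0.89, adjusted p = 0.321). Some other epithelial genes were ordered differently. Krt19, a biliary keratin, was at 472 and 441 CPM in Bec_LPCs, 1511 and 932 CPM in Hep_LPCs, and 117 and 282 CPM in NPC_LPCs, and Cdh1 (E-cadherin) at 662 and 602, 845 and 844, and 445 and 109 CPM in the same groups. Hnf4a, a hepatocyte transcription factor, was at 126 and 104 CPM in Bec_LPCs, 248 and 263 CPM in Hep_LPCs, and 28.8 and 51.2 CPM in NPC_LPCs.

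Promoter sequence is shown for 4 members that were lower in Bec_LPCs and, beside them, for Cxcl12, whose order across groups ran the other way. RefSeq windows from 250 bases before to 50 after the start (GRCm38.p6) were on hand for 6 of the 10 genes, Ccl20, Cxcl1, Cxcl2, Cxcl10, Cxcl12 and Cx3cl1. Capitals mark matches, on either strand, to the NF-kB consensus and, at the first match in Cxcl10, to the interferon-stimulated response element (GAAA, any 2 bases, GAAA). The windows are chr5:90890995-90891294 (plus strand) for Cxcl1, chr5:90903649-90903948 (plus) for Cxcl2, chr1:83116516-83116815 (plus) for Ccl20, chr5:92348840-92349139 (minus) for Cxcl10 and chr6:117168285-117168584 (plus) for Cxcl12.
Cxcl1: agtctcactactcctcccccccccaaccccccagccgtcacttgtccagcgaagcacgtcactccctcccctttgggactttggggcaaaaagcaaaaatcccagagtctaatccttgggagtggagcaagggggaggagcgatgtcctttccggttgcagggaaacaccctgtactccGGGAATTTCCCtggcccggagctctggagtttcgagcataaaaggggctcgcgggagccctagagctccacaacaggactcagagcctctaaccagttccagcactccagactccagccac
Cxcl2: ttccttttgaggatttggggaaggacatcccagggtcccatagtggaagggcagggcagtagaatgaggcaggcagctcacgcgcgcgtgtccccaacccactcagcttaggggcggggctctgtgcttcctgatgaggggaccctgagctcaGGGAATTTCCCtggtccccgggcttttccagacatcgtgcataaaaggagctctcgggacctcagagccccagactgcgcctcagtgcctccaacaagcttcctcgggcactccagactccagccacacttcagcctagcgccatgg
Ccl20: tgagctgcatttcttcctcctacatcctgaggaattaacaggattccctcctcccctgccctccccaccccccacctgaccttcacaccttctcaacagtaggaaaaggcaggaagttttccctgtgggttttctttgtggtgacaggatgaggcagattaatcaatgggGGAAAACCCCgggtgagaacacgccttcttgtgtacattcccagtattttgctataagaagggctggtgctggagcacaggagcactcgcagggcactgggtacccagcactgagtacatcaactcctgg
Cxcl10: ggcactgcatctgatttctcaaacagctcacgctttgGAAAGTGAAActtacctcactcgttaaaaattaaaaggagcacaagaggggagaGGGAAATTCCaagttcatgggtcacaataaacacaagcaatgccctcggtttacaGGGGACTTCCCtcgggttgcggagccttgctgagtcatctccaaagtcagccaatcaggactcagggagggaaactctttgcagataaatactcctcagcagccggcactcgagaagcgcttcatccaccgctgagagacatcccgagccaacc
Cxcl12: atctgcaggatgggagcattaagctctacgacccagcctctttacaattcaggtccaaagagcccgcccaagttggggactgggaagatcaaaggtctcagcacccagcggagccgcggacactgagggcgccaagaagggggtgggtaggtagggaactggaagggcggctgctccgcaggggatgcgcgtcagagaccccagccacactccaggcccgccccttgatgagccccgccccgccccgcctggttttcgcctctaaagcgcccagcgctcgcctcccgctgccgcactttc

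Cxcl1 and Cxcl2 held the same 10 bases, GGGAATTTCC, beginning 71 and 97 bases before their starts, and in each a second match overlaps the first, shifted by 1 base. Ccl20 held GGAAAACCCC, 80 bases before its start. Cxcl10 held matches that begin 159 and 104 bases before its start (the second again overlapped by a match 1 base on), the interferon element GAAAGTGAAA at 213 bases, and an AP-1 site (TGANTCA, not capitalised) at 74 bases. No NF-kB letters were found in the windows of Cxcl12 and Cx3cl1. Of 32851 promoter windows of 300 bases, 8.46% held an NF-kB match, 3.44% the interferon element and 7.81% the AP-1 site. The motifs were picked with the promoters in view, and a match describes letters only, not a site in use.

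**Figure D1:**
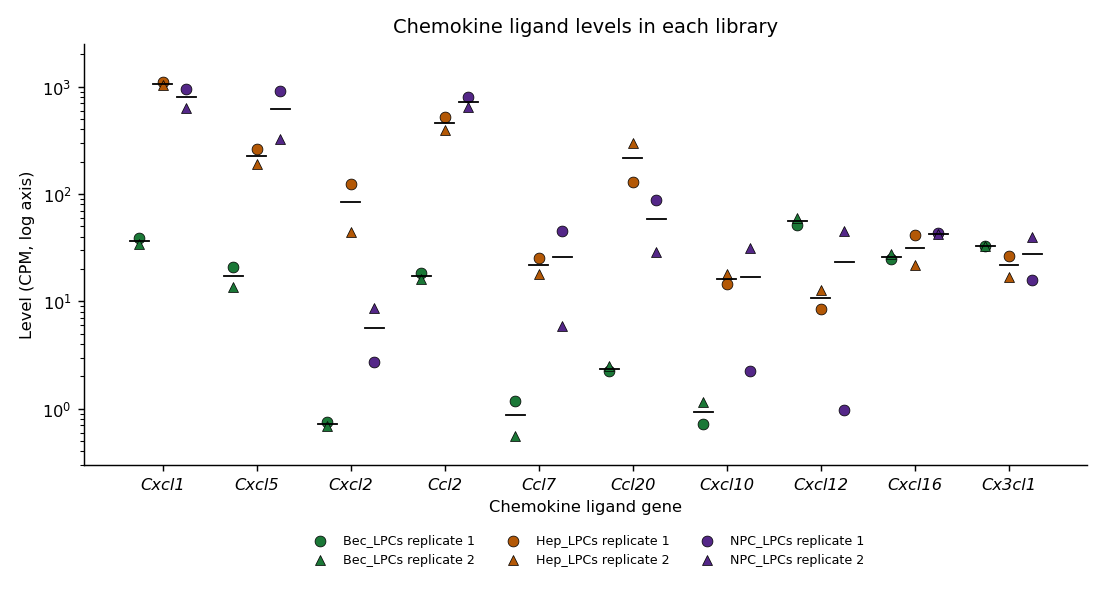
Level of each chemokine ligand (CPM, log axis) in each library, with groups in 3 colours and replicates in 2 marker shapes. For the 7 genes Cxcl1, Cxcl2, Cxcl5, Ccl2, Ccl7, Ccl20 and Cxcl10 both Bec_LPCs points lie below all 4 others, while Cxcl12 is highest in Bec_LPCs and Cx3cl1 and Cxcl16 stay between 15.8 and 43.0 CPM.

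The central contrast is of Bec_LPCs with both other groups. Of the 10 ligands, 7 were lower in Bec_LPCs than in Hep_LPCs and 5 were lower in Bec_LPCs than in NPC_LPCs, and 0 were higher in either. Across all 12867 genes tested, 33.4% were called between Bec_LPCs and Hep_LPCs (16.1% higher, 17.2% lower) and 11.3% between Bec_LPCs and NPC_LPCs (4.89% higher, 6.44% lower). The median log2 fold change of the 10 ligands was -4.36 in Bec_LPCs over Hep_LPCs, against 0.03 for all genes, and -4.29 in Bec_LPCs over NPC_LPCs, against 0.01 for all genes. Libraries did not overlap, with Bec_LPCs lower, for 7 ligands against Hep_LPCs (36.8% of all genes) and for 8 against NPC_LPCs (33% of all genes). They did not overlap, with Bec_LPCs higher, for 2 against Hep_LPCs (40.8% of all genes) and 1 against NPC_LPCs (37% of all genes). These comparisons share the Bec_LPCs libraries, so they are not separate evidence. The ligands were chosen with earlier results of these data known, so their counts and medians beside those of all genes are a description only. In RNA pooled from many cells, which in Bec_LPCs had been sorted for Epcam, fewer cells making a ligand and less RNA per cell cannot be told apart.

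The neutrophil-attracting ligands of the CXC family, which act through Cxcr2, came first. Cxcl1 (chromosome 5, 90891241 to 90893115 in mm10, plus strand) was at 38.9 and 34.4 CPM in Bec_LPCs, 1095 and 1027 CPM in Hep_LPCs, and 957 and 630 CPM in NPC_LPCs. It was the most abundant of the 10 in Hep_LPCs, and Bec_LPCs lay far below every other library. Cxcl1 was 28.9-fold lower in Bec_LPCs than in Hep_LPCs (log2 -4.85 ± 0.28, adjusted p = 0.000861) and 21.6-fold lower than in NPC_LPCs (-4.44 ± 0.27, adjusted p = 0.00145). Cxcl5 (chromosome 5, 90759360 to 90761624, plus strand), which epithelial cells release in inflammation, was at 20.8 and 13.6 CPM in Bec_LPCs, 260 and 190 CPM in Hep_LPCs, and 921 and 327 CPM in NPC_LPCs. The groups kept the same order in every library, lowest in Bec_LPCs and highest in NPC_LPCs, though NPC_LPCs replicates were 2.82-fold apart. Cxcl5 fell in Bec_LPCs against Hep_LPCs (log2 -3.71 ± 0.56, adjusted p = 0.00826) and against NPC_LPCs (-5.18 ± 0.60, adjusted p = 0.00965).

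Cxcl2 (chromosome 5, 90903871 to 90905938, plus strand), the ligand nearest to Cxcl1 in place, behaved differently from it. It was at 0.760 and 0.686 CPM in Bec_LPCs (18 and 16 reads), 124 and 44.4 CPM in Hep_LPCs, and 2.71 and 8.64 CPM in NPC_LPCs. Hep_LPCs stood above all 4 other libraries, and Bec_LPCs below all. Cxcl2 was lower in Bec_LPCs than in Hep_LPCs (log2 -6.85 ± 0.85, adjusted p = 0.00512), the largest difference among the 10 in that comparison, and was not called against NPC_LPCs (-2.97 ± 0.77, adjusted p = 0.0627). Its closest relative by sequence is Cxcl3, with 90.9% identity over 547 aligned bases, so reads that the authors' counting could not place may be split between them.

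The monocyte attractants Ccl2 and Ccl7 both act through Ccr2, and their genes are neighbours. Ccl2 (chromosome 11, 82035571 to 82037453, plus strand) was at 18.5 and 16.1 CPM in Bec_LPCs, 524 and 392 CPM in Hep_LPCs, and 804 and 647 CPM in NPC_LPCs. Bec_LPCs lay below all others, and no library of one group fell inside another group's range. Ccl2 fell in Bec_LPCs against Hep_LPCs (log2 -4.72 ± 0.25, adjusted p = 0.000813) and against NPC_LPCs (-5.39 ± 0.26, adjusted p = 0.000928), which ranks it 29 and 14 by p among all genes tested. Ccl7 (chromosome 11, 82045712 to 82047525, plus strand) starts 8259 bases past the end of Ccl2 and was far less abundant, at 1.18 and 0.557 CPM in Bec_LPCs, 25.3 and 18.0 CPM in Hep_LPCs, and 45.4 and 5.85 CPM in NPC_LPCs. Its Bec_LPCs values were again the lowest, while the NPC_LPCs replicates, 7.77-fold apart, spanned both Hep_LPCs values. Ccl7 fell in Bec_LPCs against Hep_LPCs (log2 -4.63 ± 1.05, adjusted p = 0.0231) and against NPC_LPCs (-4.87 ± 1.06, adjusted p = 0.0434).

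Ccl20 (chromosome 1, 83116766 to 83119167, plus strand), which draws dendritic cells and Th17 lymphocytes through Ccr6, was at 2.24 and 2.49 CPM in Bec_LPCs, 128 and 301 CPM in Hep_LPCs, and 88.3 and 28.8 CPM in NPC_LPCs. The 3 groups did not overlap, with Hep_LPCs highest. Ccl20 was 90.6-fold lower in Bec_LPCs than in Hep_LPCs (log2 -6.50 ± 0.77, adjusted p = 0.00456) and 24.7-fold lower than in NPC_LPCs (-4.63 ± 0.72, adjusted p = 0.0207). Cxcl10 (chromosome 5, 92346638 to 92348889, minus strand), an interferon-induced ligand of Cxcr3 on T cells, was at 0.717 and 1.16 CPM in Bec_LPCs, 14.5 and 17.9 CPM in Hep_LPCs, and 2.25 and 31.2 CPM in NPC_LPCs. Both Bec_LPCs values were the lowest, but the NPC_LPCs replicates lay on either side of Hep_LPCs, 13.8-fold apart. Cxcl10 fell by 4.10 ± 1.19 in Bec_LPCs against Hep_LPCs (adjusted p = 0.0447) and missed the threshold against NPC_LPCs (-4.15 ± 1.19, adjusted p = 0.0764). Art3, which overlaps 5.91% of its exonic bases, was at most 0.102 CPM.

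The other 3 ligands were not called in either comparison. Cxcl12 (chromosome 6, 117168535 to 117181367, plus strand), the ligand of Cxcr4 and Ackr3 that retains stem and progenitor cells in their niches, was at 52.0 and 59.5 CPM in Bec_LPCs, 8.55 and 12.8 CPM in Hep_LPCs, and 0.982 and 45.2 CPM in NPC_LPCs. Bec_LPCs held the highest values, and the NPC_LPCs replicates, 46.0-fold apart, took both the lowest place and the one just under Bec_LPCs. The log2 fold change of Cxcl12 was 2.39 ± 1.35 in Bec_LPCs over Hep_LPCs (adjusted p = 0.213) and 1.27 ± 1.30 over NPC_LPCs (adjusted p = 0.545). The NPC_LPCs spread enters the first of these through the joint fit: without NPC_LPCs replicate 1 or replicate 2, Cxcl12 was called higher in Bec_LPCs than in Hep_LPCs (2.38, adjusted p = 0.00730, and 2.39, adjusted p = 0.00761), as in a fit of the 4 libraries alone (2.38, adjusted p = 0.00761). Without NPC_LPCs replicate 2 the difference from NPC_LPCs was 5.82 (adjusted p = 0.0137).

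Cx3cl1 and Cxcl16 are made as membrane-bound proteins, hold cells that carry Cx3cr1 or Cxcr6, and are released by the proteases Adam10 and Adam17. Cx3cl1 (chromosome 8, 94772009 to 94782427, plus strand) was at 33.1 and 32.9 CPM in Bec_LPCs, 26.5 and 17.0 CPM in Hep_LPCs, and 15.8 and 39.9 CPM in NPC_LPCs. Bec_LPCs lay above Hep_LPCs and inside the NPC_LPCs range. The log2 fold change of Cx3cl1 was 0.60 ± 0.46 over Hep_LPCs (adjusted p = 0.343) and 0.24 ± 0.46 over NPC_LPCs (adjusted p = 0.747). Cxcl16 (chromosome 11, 70453983 to 70459984, minus strand) was at 24.6 and 27.4 CPM in Bec_LPCs, 41.3 and 21.8 CPM in Hep_LPCs, and 43.0 and 42.0 CPM in NPC_LPCs. Bec_LPCs lay inside the Hep_LPCs range and below NPC_LPCs. The log2 fold change of Cxcl16 was -0.28 ± 0.31 over Hep_LPCs (adjusted p = 0.517) and -0.71 ± 0.32 over NPC_LPCs (adjusted p = 0.188). Without Hep_LPCs replicate 2 it was called lower in Bec_LPCs than in Hep_LPCs (-0.67, adjusted p = 0.0419), and the sign turned without Hep_LPCs replicate 1 (0.25, adjusted p = 0.313). Against NPC_LPCs it was called in the fit of those 4 libraries (-0.71, adjusted p = 0.0376) and without either Hep_LPCs library (adjusted p = 0.0411 and 0.0398). Zmynd15, on the other strand, shares 18.3% of the exonic bases of Cxcl16 and was at 1.07 to 3.58 CPM.

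**Figure D2:**
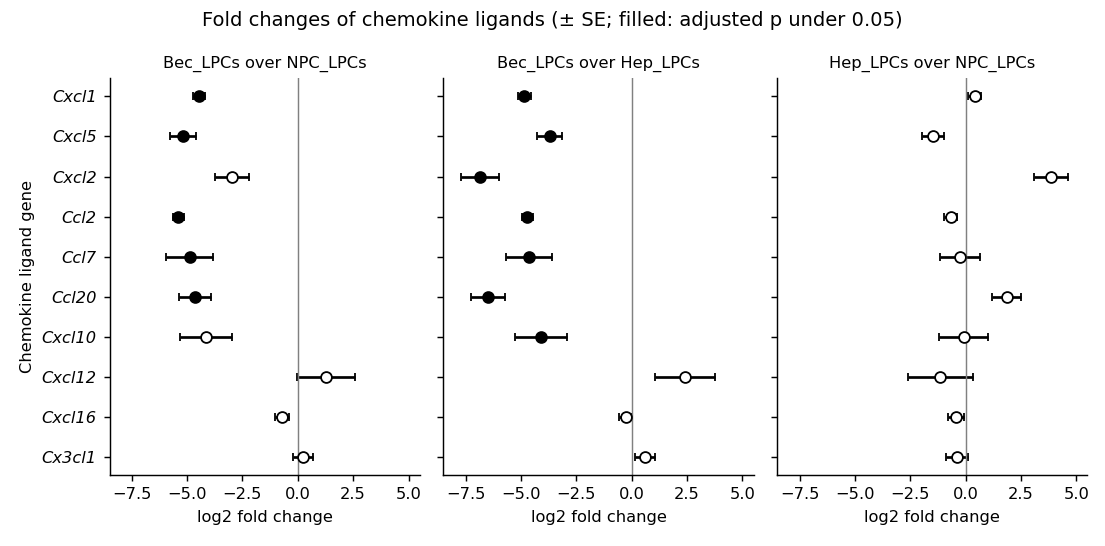
Log2 fold change (± SE) of each ligand in the 3 comparisons, with filled points where the adjusted p was under 0.05. Filled points number 7 in Bec_LPCs over Hep_LPCs, 5 in Bec_LPCs over NPC_LPCs and 0 in Hep_LPCs over NPC_LPCs.

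Of these 12 calls, 4 (Ccl2 and Cxcl1 in both comparisons) held in every alternative run, and none turned in sign. With 1 Bec_LPCs library left out, 2 ligands were called against NPC_LPCs without replicate 1 and 2 without replicate 2, and 3 and 2 were called against Hep_LPCs. Lost against NPC_LPCs without Bec_LPCs replicate 1 and replicate 2 were Ccl7 (adjusted p = 0.252 and 0.310), Ccl20 (0.180 and 0.181) and Cxcl5 (0.0511 and 0.0727). Lost against Hep_LPCs were Ccl7 (adjusted p = 0.124 and 0.153), Ccl20 (0.0510 and 0.0503), Cxcl2 (0.0574 and 0.0550) and Cxcl10 (0.246 and 0.199), with Cxcl5 lost only without replicate 2 (0.0619). Without Hep_LPCs replicate 1 and replicate 2, Ccl7 and Cxcl10 were also lost against Hep_LPCs (adjusted p = 0.0757 and 0.0544 for Ccl7, 0.106 and 0.111 for Cxcl10), and Ccl7 against NPC_LPCs (0.0650 and 0.0661). Without NPC_LPCs replicate 1, Ccl7 was lost against NPC_LPCs (log2 -2.79, adjusted p = 0.0513) and Cxcl10 was gained (-5.09, adjusted p = 0.0130).

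Hep_LPCs against NPC_LPCs is the comparison the growth protocol names, asking how progenitor-like cells from these sources differ. None of the 10 ligands was called by edgeR's quasi-likelihood test, where 95 of 12159 genes (0.781%) were called, 0.354% higher and 0.428% lower. Before adjustment, p was under 0.05 for 4 ligands (22.2% of all genes), DESeq2's Wald test called 3, and limma-voom 0. Libraries did not overlap for 3 ligands higher in Hep_LPCs (28.9% of all genes) and 3 lower (27.7%). Cxcl2 had the largest difference, 124 and 44.4 CPM in Hep_LPCs against 2.71 and 8.64 CPM in NPC_LPCs (log2 3.85 ± 0.78, adjusted p = 0.0877). It was called when the Bec_LPCs libraries shared the fit (3.88, adjusted p = 0.0344) and by DESeq2 (3.87, adjusted p = 3.51e-07). Ccl20 gave 1.86 ± 0.66 (adjusted p = 0.191) and Cxcl1 gave 0.40 ± 0.29 (adjusted p = 0.461), both with Hep_LPCs above NPC_LPCs in each library. Cxcl5 gave -1.48 ± 0.50 (adjusted p = 0.174), Ccl2 gave -0.68 ± 0.28 (adjusted p = 0.223) and Cxcl16 gave -0.45 ± 0.36 (adjusted p = 0.502), with Hep_LPCs below. DESeq2 also called Ccl20 (adjusted p = 0.0185) and Cxcl5 (adjusted p = 0.0280). For Ccl7, Cxcl10, Cxcl12 and Cx3cl1 the groups overlapped, log2 values lay between -1.15 and -0.09, and the sign turned when 1 NPC_LPCs library was left out: without replicate 1 Ccl7 gave 1.87, and without replicate 2 Cxcl10 gave 2.83, Cxcl12 3.43 and Cx3cl1 0.46. Without either Hep_LPCs library, 0 genes were called in this comparison.

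Summed over the 10 genes, the level was 193 and 189 CPM in Bec_LPCs, 2247 and 2041 CPM in Hep_LPCs, and 2880 and 1806 CPM in NPC_LPCs. Bec_LPCs thus held the smallest sums, and the other groups overlapped. The make-up of that sum differed too. Cxcl1, Ccl2 and Cxcl5 made up 40.6% and 34.0% of it in Bec_LPCs, 83.6% and 78.8% in Hep_LPCs, and 93.1% and 88.8% in NPC_LPCs. Cxcl12, Cx3cl1 and Cxcl16 made up 56.9% and 63.5% in Bec_LPCs, 3.39% and 2.53% in Hep_LPCs, and 2.07% and 7.04% in NPC_LPCs. These shares are of reads, so a long transcript weighs more, and they were grouped after the values were seen.

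**Figure D3:**
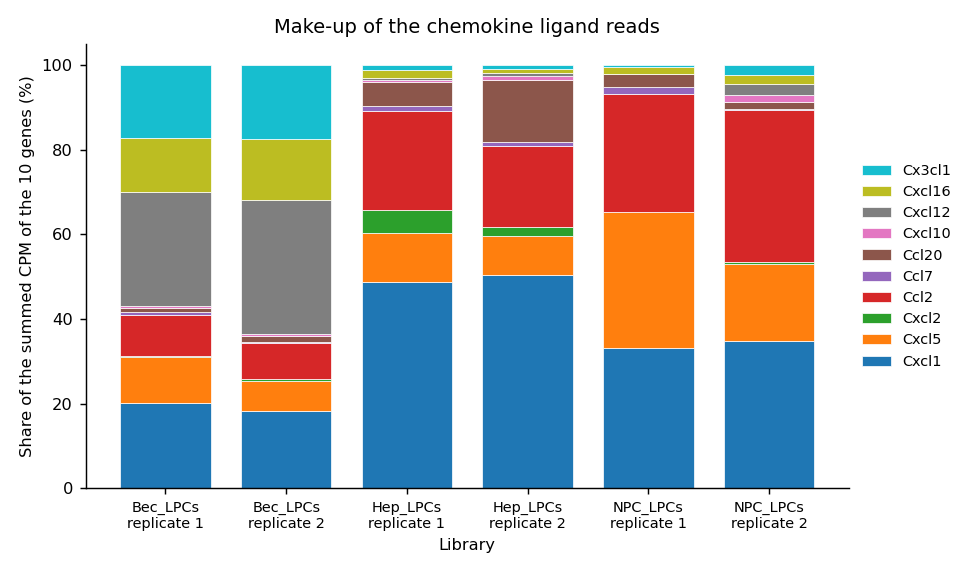
Share (%) of the summed CPM of the 10 ligands that each gene takes, 1 stacked bar per library. Cxcl12, Cx3cl1 and Cxcl16 take 56.9% and 63.5% of the Bec_LPCs bars and at most 7.04% of the others.

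Levels between genes were set side by side as CPM per kilobase of the principal transcript. In Bec_LPCs the mean order ran Cxcl1 38.5, Ccl2 21.3, Cxcl12 17.8, Cxcl5 10.9, Cx3cl1 9.96, Cxcl16 9.63, Ccl20 2.97, Ccl7 1.09, Cxcl10 0.857 and Cxcl2 0.652 CPM per kilobase. The first 3 and Ccl20 were each apart from their neighbours in this order. Cxcl5, Cx3cl1 and Cxcl16 overlapped one another, as did Ccl7 with Cxcl10 and Cxcl10 with Cxcl2. Hep_LPCs ran Cxcl1 1113, Ccl2 563, Ccl20 270, Cxcl5 143 and Cxcl2 75.7 CPM per kilobase, with the other 5 at 3.40 to 27.1. Ccl20 and Cxcl5 overlapped in that group (162 and 378 against 165 and 120 CPM per kilobase). NPC_LPCs had Ccl2 first at 893 and Cxcl1 next at 833 CPM per kilobase, with ranges that overlap, then Cxcl5 at 396 and Ccl20 at 73.7 CPM per kilobase. The mean of Cxcl2 there was 5.12 CPM per kilobase, the lowest mean of the 10, but it was not lowest in each library. In replicate 1, Cxcl12 (0.313) and Cxcl10 (2.06) lay below Cxcl2 (2.45 CPM per kilobase). In replicate 2, Ccl7 (7.30) lay below Cxcl2 (7.79 CPM per kilobase). In the FPKM that the authors deposited for Hep_LPCs and NPC_LPCs the same 2 genes led, with Cxcl1 at 1548 and 1323 FPKM and Ccl2 at 673 and 466 FPKM in Hep_LPCs, and Cxcl1 at 1302 and 935 FPKM and Ccl2 at 994 and 872 FPKM in NPC_LPCs.

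Several ligands lie side by side in the genome. Cxcl5, Cxcl1 and Cxcl2 belong to a run of CXC genes on chromosome 5 that also holds Ppbp, Pf4, Cxcl3 and Cxcl15. Cxcl3, another Cxcr2 ligand, was at 0.464 and 0.257 CPM in Bec_LPCs, 24.1 and 21.7 CPM in Hep_LPCs, and 0.173 and 2.95 CPM in NPC_LPCs. Its order resembled that of Cxcl2 rather than that of Cxcl1 or Cxcl5, with Hep_LPCs above every other library. Cxcl3 fell by 5.96 ± 1.19 in Bec_LPCs against Hep_LPCs (adjusted p = 0.0165), and Hep_LPCs over NPC_LPCs gave 3.82 ± 1.13 (adjusted p = 0.149). Ppbp, Pf4 and Cxcl15 were at most 0.936 CPM in any library. Mthfd2l, a mitochondrial folate enzyme 25179 bases past Cxcl2, was at 17.3 and 17.4 CPM in Bec_LPCs, 20.9 and 17.8 CPM in Hep_LPCs, and 14.1 and 21.9 CPM in NPC_LPCs. It was called in no comparison (Bec_LPCs over Hep_LPCs log2 -0.16, adjusted p = 0.679). Beside Ccl2 and Ccl7 on chromosome 11, the eosinophil and monocyte attractants Ccl8, Ccl11 and Ccl12 were at most 0.119 CPM. Near Cxcl10, Cxcl16 and Cx3cl1, some neighbours that are not chemokines were called in Bec_LPCs over Hep_LPCs, where 33.4% of all genes were. Scarb2 and Pld2 were higher, and Arrb2, Pelp1, Pllp, Ciapin1 and Polr2c were lower.

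**Figure D4:**
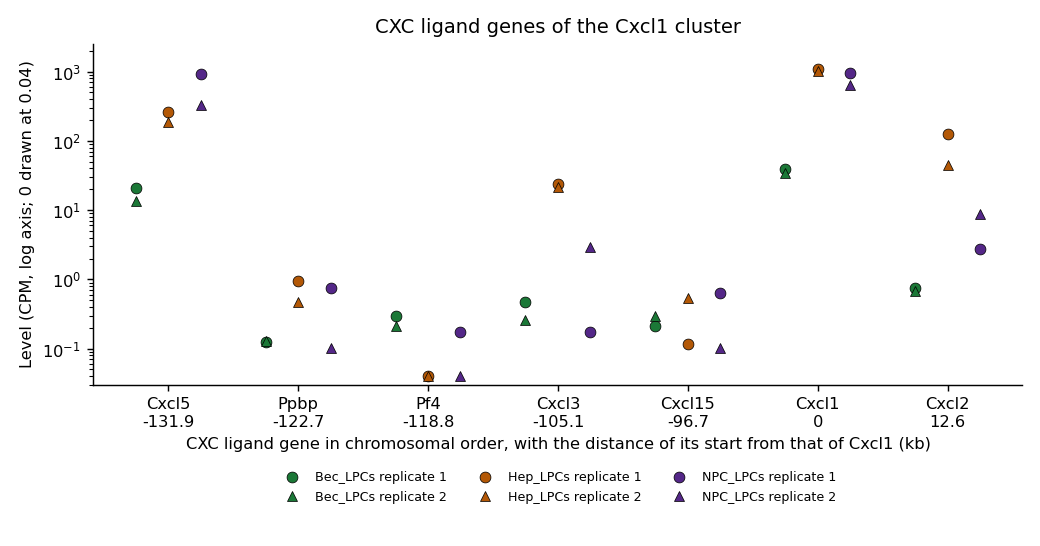
Level (CPM, log axis, 0 drawn at 0.04) of 7 CXC ligand genes in chromosomal order, with the distance of each start from that of Cxcl1 in kb. Cxcl1 and Cxcl5 are high in Hep_LPCs and NPC_LPCs, Cxcl2 and Cxcl3 in Hep_LPCs, and Ppbp, Pf4 and Cxcl15 are near 0 in all 6 libraries.

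Of 27 other chemokine ligands in the tables, 10 were tested against Bec_LPCs, and their summed level was 33.8 and 33.2 CPM in Bec_LPCs, 41.1 and 34.2 CPM in Hep_LPCs, and 19.2 and 22.5 CPM in NPC_LPCs. Called were 3 higher and 1 lower in Bec_LPCs than in Hep_LPCs, and 2 higher and 1 lower than in NPC_LPCs. Over all genes these shares were 33.4% called against Hep_LPCs and 11.3% against NPC_LPCs, so the counts of the wider family are no more than a description. Ccl6, a myeloid chemokine of rodents, was at 9.71 and 7.59 CPM in Bec_LPCs and at most 0.559 CPM elsewhere (log2 5.56 ± 0.84 over Hep_LPCs, adjusted p = 0.00821). Ccl25, the Ccr9 ligand of gut and thymus, was at 13.5 and 14.3 CPM in Bec_LPCs, 6.15 and 6.11 CPM in Hep_LPCs, and 5.31 and 4.17 CPM in NPC_LPCs, and rose in Bec_LPCs against both (1.18 ± 0.29, adjusted p = 0.0279, and 1.55 ± 0.29, adjusted p = 0.0303). Ccl27a, a skin-homing ligand with overlapping exons or a near-identical copy, rose against Hep_LPCs (2.37 ± 0.54, adjusted p = 0.0230).

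Most receptors for these ligands were almost unread. Cxcr2, the receptor of Cxcl1, Cxcl2 and Cxcl5, had 0 and 1 reads in Bec_LPCs and 0 in the other 4 libraries. Cxcr4 had 2 reads in Hep_LPCs replicate 1 and 0 elsewhere, Cxcr3 had 1 read in Bec_LPCs replicate 1 and 0 elsewhere, and Ackr1 had 0 in all 6. Cx3cr1 had 4 and 9 reads in Bec_LPCs, 20 and 5 in Hep_LPCs, and 4 and 2 in NPC_LPCs. In Bec_LPCs, Ccr1 had 15 and 10 reads, Ackr4 had 12 and 16, and Cxcr6 had 5 and 2. A floor of 3 reads was 0.127 to 0.178 CPM, so lower levels could not be read at this depth. Ackr3, the scavenging receptor of Cxcl12, was the most abundant of the 14 at 0.760 and 0.772 CPM in Bec_LPCs, 6.61 and 4.86 CPM in Hep_LPCs, and 1.79 and 3.56 CPM in NPC_LPCs. Bec_LPCs, which held most Cxcl12, held least Ackr3, and Ackr3 fell by 2.90 ± 0.54 there against Hep_LPCs (adjusted p = 0.0139). For the membrane-bound ligands, Adam10 was at 219 to 320 CPM and Adam17 (with overlapping exons or a near-identical copy) at 78.8 to 126 CPM in the 6 libraries, with neither called in a comparison (both named after their values were seen). Of 12 genes of shedding, processing and retention, 2 rose in Bec_LPCs against Hep_LPCs and 1 of them, Sdc4, against NPC_LPCs (0.93 ± 0.19, adjusted p = 0.0356), where 33.4% and 11.3% of all genes were called. Both are cell-surface or matrix heparan sulphate proteoglycans, which bind chemokines, while Sdc1, another of these, was at 448 and 405 CPM in Bec_LPCs and 584 and 644 CPM in Hep_LPCs (-0.52, adjusted p = 0.0681). Sdc4 was at 382 and 370 CPM in Bec_LPCs and 98.7 and 112 CPM in Hep_LPCs (1.83 ± 0.19, adjusted p = 0.00339), and Hspg2 at 997 and 1081 CPM in Bec_LPCs and 162 and 202 CPM in Hep_LPCs (2.52 ± 0.25, adjusted p = 0.00303). Hspg2 also fell in Hep_LPCs against NPC_LPCs (-2.38 ± 0.32, adjusted p = 0.0481).

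NF-kB drives most of the inflammatory ligands and also its own inhibitors, so those genes were read beside them. Of 16 NF-kB subunits and feedback genes, 5 were lower and 2 higher in Bec_LPCs than in Hep_LPCs, and 7 were lower and 0 higher than in NPC_LPCs. Of all genes, 33.4% were called against Hep_LPCs (17.2% lower) and 11.3% against NPC_LPCs (6.44% lower). The list median was -0.48 and -0.72, against 0.03 and 0.01 for all genes. Nfkbia, the inhibitor that NF-kB induces to shut itself off, was at 34.3 and 31.7 CPM in Bec_LPCs, 290 and 344 CPM in Hep_LPCs, and 103 and 107 CPM in NPC_LPCs. The 3 groups were wholly apart, in the order Hep_LPCs, NPC_LPCs, Bec_LPCs, the order that Cxcl2, Ccl20 and Cxcl1 also had. Ccl2 and Cxcl5 were instead highest in NPC_LPCs, and for Ccl7 and Cxcl10 the Hep_LPCs and NPC_LPCs libraries overlapped. Nfkbia fell in Bec_LPCs against Hep_LPCs (log2 -3.26 ± 0.18, adjusted p = 0.000813) and against NPC_LPCs (-1.67 ± 0.17, adjusted p = 0.00581). Bcl3, a nuclear IkB protein, fell against both (-2.68 ± 0.25, adjusted p = 0.00278, and -2.07 ± 0.25, adjusted p = 0.0106). So did Tnip1, a partner of the deubiquitinase Tnfaip3 (-1.20 ± 0.17, adjusted p = 0.00677, and -1.94 ± 0.17, adjusted p = 0.00431). Nfkbib, an inhibitor with overlapping exons or a near-identical copy, did as well (-1.62 ± 0.22, adjusted p = 0.00604, and -1.45 ± 0.21, adjusted p = 0.0184). Other members, named after their values were seen, differed. Nfkbie was at 13.6 and 12.6 CPM in Bec_LPCs, 3.28 and 5.40 CPM in Hep_LPCs, and 19.5 and 20.0 CPM in NPC_LPCs. It rose in Bec_LPCs against Hep_LPCs (1.59 ± 0.31, adjusted p = 0.0156). Tnfaip3 and Relb were called in no comparison. The part of NF-kB in the ligand levels was not tested.

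**Figure D5:**
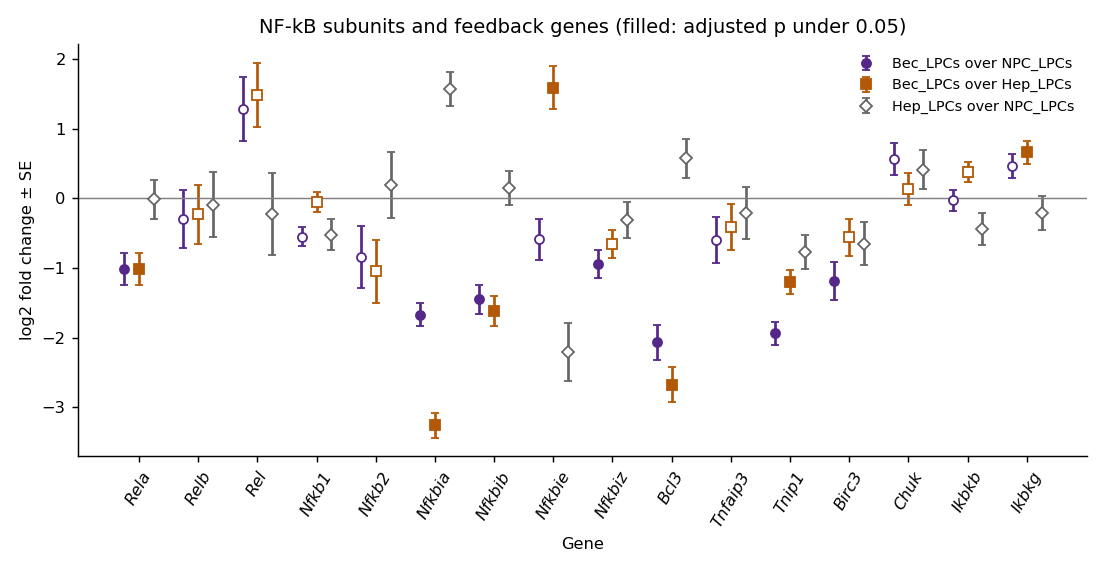
Log2 fold change (± SE) of 16 NF-kB subunits and feedback genes in the 3 comparisons, filled where the adjusted p was under 0.05. In Bec_LPCs, Nfkbia, Bcl3, Tnip1, Nfkbib and Rela were called lower against both other groups, and Ikbkg and Nfkbie were called higher against Hep_LPCs.

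Among 25 tested receptors and adaptors of IL-1, TNF, IL-17 and Toll-like signals, 3 were lower and 1 higher in Bec_LPCs than in Hep_LPCs, where 33.4% of all genes were called, and 5 were lower than in NPC_LPCs, where 11.3% were. Traf3ip2, the IL-17 receptor adaptor (with overlapping exons or a near-identical copy), was at 23.5 and 22.4 CPM in Bec_LPCs, 43.4 and 46.3 CPM in Hep_LPCs, and 57.2 and 66.9 CPM in NPC_LPCs. It fell against both (-0.97 ± 0.17, adjusted p = 0.0124, and -1.43 ± 0.17, adjusted p = 0.0106). Tnfrsf1a, the main TNF receptor, fell too (-0.71 ± 0.16, adjusted p = 0.0213, and -0.84 ± 0.16, adjusted p = 0.0305). Tnfrsf1b, the other TNF receptor, was at 24.7 and 21.4 CPM in Bec_LPCs, 13.8 and 22.4 CPM in Hep_LPCs, and 87.3 and 98.3 CPM in NPC_LPCs. NPC_LPCs stood apart there, and Hep_LPCs were lower than NPC_LPCs (-2.38 ± 0.33, adjusted p = 0.0487). Tlr3, a sensor of double-stranded RNA, rose in Bec_LPCs against Hep_LPCs (1.74 ± 0.38, adjusted p = 0.0211).

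Of 13 inflammatory cytokines tested, 4 were lower and 2 higher in Bec_LPCs than in Hep_LPCs (33.4% of all genes called), and 1 was lower than in NPC_LPCs (11.3%). Tnf had 0 reads in both Bec_LPCs libraries, 21 and 23 reads in Hep_LPCs, and 1 and 3 reads in NPC_LPCs, at least 10.2-fold lower in Bec_LPCs than in Hep_LPCs taking 3 reads in each library as the floor (adjusted p = 0.0133). Csf2, a myeloid growth factor, was at 2.83 and 4.16 CPM in Bec_LPCs, 57.9 and 31.1 CPM in Hep_LPCs, and 11.0 and 23.8 CPM in NPC_LPCs, and fell against both (-3.67 ± 0.53, adjusted p = 0.00750, and -2.32 ± 0.51, adjusted p = 0.0437). Il11, a cytokine of the IL-6 family, was at 8.65 and 8.36 CPM in Bec_LPCs, 0.234 and 0.119 CPM in Hep_LPCs, and 2.71 and 16.8 CPM in NPC_LPCs, and Il15 was at 2.66 and 3.26 CPM in Bec_LPCs and 0.644 and 0.593 CPM in Hep_LPCs. Both rose in Bec_LPCs against Hep_LPCs (5.54 ± 1.07, adjusted p = 0.0151, and 2.25 ± 0.51, adjusted p = 0.0231).

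Messenger RNAs of the inflammatory chemokines carry AU-rich elements and are short-lived, and genes that act on the turnover of such transcripts were read as a list of 9. Of these, 4 were lower and 1 higher in Bec_LPCs than in Hep_LPCs (33.4% of all genes called), 2 were lower than in NPC_LPCs (11.3%), and 1 was higher in Hep_LPCs than in NPC_LPCs (0.781%). Zfp36 (tristetraprolin), which speeds decay of Tnf and Cxcl1 mRNA, was at 27.6 and 30.2 CPM in Bec_LPCs, 331 and 394 CPM in Hep_LPCs, and 39.7 and 33.3 CPM in NPC_LPCs. Hep_LPCs, with the most Cxcl2, Cxcl3 and Ccl20, thus also held most of a decay factor for such transcripts. Zfp36 rose in Hep_LPCs against NPC_LPCs (3.29 ± 0.27, adjusted p = 0.0250) and fell in Bec_LPCs against Hep_LPCs (-3.65 ± 0.20, adjusted p = 0.000813). Dusp1, a phosphatase that turns off p38, fell by 1.36 ± 0.15 in Bec_LPCs against Hep_LPCs (adjusted p = 0.00359), and Hnrnpd (with overlapping exons or a near-identical copy) fell by 1.53 ± 0.20 (adjusted p = 0.00553). Zfp36l2, a relative of Zfp36, rose by 1.04 ± 0.17 (adjusted p = 0.00940).

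Several genes upstream of Cxcl10 were highest in NPC_LPCs. Of 14 tested interferon and IRF genes, 5 were lower and 0 higher in Bec_LPCs than in NPC_LPCs (11.3% of all genes called), 2 were lower and 2 higher than in Hep_LPCs (33.4%), and 1 was lower in Hep_LPCs than in NPC_LPCs (0.781%). Stat2, part of the factor that binds the interferon element, was at 24.7 and 18.0 CPM in Bec_LPCs, 24.1 and 31.7 CPM in Hep_LPCs, and 125 and 193 CPM in NPC_LPCs. NPC_LPCs stood apart from all others (Hep_LPCs over NPC_LPCs -2.53 ± 0.33, adjusted p = 0.0481, and Bec_LPCs over NPC_LPCs -2.90 ± 0.31, adjusted p = 0.00772). Irf7, an interferon-induced transcription factor, was named after its values were seen. It was at 2.53 and 1.67 CPM in Bec_LPCs, 2.28 and 1.19 CPM in Hep_LPCs, and 13.3 and 117 CPM in NPC_LPCs. Within NPC_LPCs, replicate 2, which also held more Cxcl10, was the higher. Between groups this did not hold: Hep_LPCs had less Irf7 than NPC_LPCs replicate 1 but more Cxcl10 (14.5 and 17.9 CPM against 2.25 CPM). Ifnar2, an interferon receptor chain with overlapping exons or a near-identical copy, fell in Bec_LPCs against both groups (-0.85 ± 0.19, adjusted p = 0.0204, and -1.58 ± 0.19, adjusted p = 0.0101). Against Hep_LPCs, Ifnar1, the other chain, rose by 0.81 ± 0.16 (adjusted p = 0.0159) and Ifngr2 fell by 0.70 ± 0.16 (adjusted p = 0.0220).

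Markers of other liver and blood cells were read as lists. The 12 neutrophil and lymphocyte markers summed to 0 to 1.99 CPM per library. Ptprc, the pan-leukocyte antigen CD45, was at 0.591 and 0.772 CPM in Bec_LPCs, 0.176 and 0.0593 CPM in Hep_LPCs, and 0.115 and 0.254 CPM in NPC_LPCs. The sum of 13 macrophage markers was 81.0 and 76.6 CPM in Bec_LPCs, 122 and 55.5 CPM in Hep_LPCs, and 248 and 75.2 CPM in NPC_LPCs, of which Cd14 alone gave 56.7 and 48.8, 93.8 and 39.2, and 161 and 52.7 CPM. Lyz2, a lysozyme of myeloid cells with overlapping exons or a near-identical copy, was the 1 marker called of 5 tested. Of all genes, 33.4% were called in Bec_LPCs against Hep_LPCs (16.1% higher) and 11.3% against NPC_LPCs (4.89% higher). Lyz2 was at 12.2 and 14.4 CPM in Bec_LPCs, 0.293 and 0.0593 CPM in Hep_LPCs, and 0.635 and 0 CPM in NPC_LPCs. It was higher in Bec_LPCs than in Hep_LPCs (log2 6.19 ± 1.32, adjusted p = 0.0199) and NPC_LPCs (5.40 ± 1.24, adjusted p = 0.0476). Cd68, a lysosomal protein of macrophages, was lowest in both Bec_LPCs libraries, averaging 8.89 ± 0.323 CPM in Bec_LPCs, 18.4 ± 6.24 CPM in Hep_LPCs and 52.4 ± 44.6 CPM in NPC_LPCs (SD, n = 2), and was not called. The Kupffer cell markers Clec4f and Vsig4 had 0 reads in all 6 libraries. The 10 endothelial markers summed to 2.54 to 7.84 CPM. The 8 mesothelial markers summed to 1049 and 981 CPM in Bec_LPCs, 1724 and 1798 CPM in Hep_LPCs, and 765 and 521 CPM in NPC_LPCs, mostly through Krt19, which biliary cells share, and Msln, at 565 and 528, 209 and 826, and 604 and 237 CPM in the same groups.

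Stellate and mesenchymal markers were, as Cxcl12 was, highest in Bec_LPCs. Their 14 genes summed to 204 and 245 CPM in Bec_LPCs, 16.7 and 11.1 CPM in Hep_LPCs, and 7.33 and 18.9 CPM in NPC_LPCs, and 6 of 9 tested were higher in Bec_LPCs than in Hep_LPCs (16.1% of all genes), 5 than in NPC_LPCs (4.89%). Acta2, smooth muscle actin, was at 77.6 and 94.1 CPM in Bec_LPCs, 0 in both Hep_LPCs libraries, and 0 and 2.34 CPM in NPC_LPCs. Col1a1 was at 63.7 and 76.9 CPM in Bec_LPCs, 4.27 and 1.90 CPM in Hep_LPCs, and 2.89 and 12.1 CPM in NPC_LPCs, and Pdgfrb at 4.43 and 5.36 CPM in Bec_LPCs and at most 0.0585 CPM elsewhere. Not all members ran this way. Dcn, which was not tested, had 1 read in each Bec_LPCs library, 7 and 1 reads in Hep_LPCs, and 26 and 6 reads in NPC_LPCs. Its Bec_LPCs values and that of Hep_LPCs replicate 2 lay under the floor of 3 reads. Reln was at 7.30 and 4.33 CPM in Bec_LPCs and 9.25 and 5.70 CPM in Hep_LPCs, and Pdgfra at 0.253 and 0.472 CPM in Bec_LPCs and 0.702 and 1.01 CPM in Hep_LPCs. Lrat and Lum, further markers of stellate cells and fibroblasts, had 0 reads in all 6 libraries. Within NPC_LPCs, replicate 2 held more of both Cxcl12 and this sum than replicate 1, while the sum stayed far under that of Bec_LPCs. Within Hep_LPCs it was the reverse, with replicate 2 higher in Cxcl12 and lower in the sum. Bec_LPCs had been sorted for Epcam, a sort that selects epithelial cells. The part of mesenchymal cells in the Cxcl12 levels was not tested.

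The genes whose log2 CPM followed each ligand most closely over the 6 libraries were sought among 7387 genes that reach 32 CPM, a level that Cxcl10 does not reach. Pearson's r describes 6 points in 3 groups that share source and depth, and carries no test. Many genes matched most ligands closely: 404 genes reached r = 0.95 with Cxcl2, 345 with Cxcl1, 278 with Ccl20, 229 with Ccl2, 128 with Cxcl5 and 103 with Ccl7. Those first were Ubqln4 and Mepce for Cxcl2 (r = 0.999 for both), Nsa2 and Get3 for Cxcl1 (0.998 for both), Fam122a and Arpc2 for Ccl20 (0.999 and 0.997), Vps33a and Galnt2 for Ccl2 (0.998 and 0.997), Naip2 and Cmip for Cxcl5 (0.999 and 0.998), and Selenop and Ildr2 for Ccl7 (0.998 and 0.994). Patterns of the other ligands were rarer: 37 genes reached that r with Cxcl16, 12 with Cxcl12 and 11 with Cx3cl1. Xrn2 and Gab1 led for Cxcl16 (0.992 and 0.991), Prkag2 and Plau for Cxcl12 (0.986 and 0.985), and Amotl2 and Cdca4 for Cx3cl1 (0.995 and 0.988). Plau encodes urokinase, a protease of matrix breakdown, and Amotl2 is a target of YAP. Galnt2, Selenop, Ildr2, Arpc2, Nsa2, Get3 and Gab1 have overlapping exons or a near-identical copy, so counting could differ for them between the tables.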

How the data were processed

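Libraries of polyadenylated RNA, 6 in all, came from a stranded kit and were paired-end, per the labels' protocols. Trimmomatic, HISAT2, Cufflinks, HTSeq, DESeq and the build mm10 are named by the submitters' processing notes. Versions, annotation and strand setting were not given in the sources used here. As their output, the authors deposited 1 table of counts per gene symbol for each library, and the Hep_LPCs and NPC_LPCs tables also hold the authors' FPKM values, per the file headers. Bec_LPCs tables hold 14 rows without a name (0.000191% and 0.000181% of counts), which were left out. Because these tables were laid out differently from the others, a difference in counting and the group cannot be told apart.

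Older symbols were updated with RefSeq synonyms, 16 in each Bec_LPCs table and 837 in each of the others. The symbols that all tables share held 95.4% and 95.3% of the named counts in Bec_LPCs. In Hep_LPCs and NPC_LPCs they held 99.3% to 99.4%. Hep_LPCs and NPC_LPCs were compared in a fit of their own 4 libraries, and Bec_LPCs with each in a fit of all 6, by edgeR 4.0.16 (filterByExpr, TMM, glmQLFit with robust estimation, glmQLFTest, two-sided; R 4.3.3). The SE is the size of the log2 value over the root of the F statistic. Annotation is GENCODE M21 on mm10, 1-based. Genes were taken as counted alike if protein-coding, with at most 25% of exonic bases shared with other protein-coding genes (bedtools 2.31.1) and no copy of 95% identity over 200 bases (minimap2 2.31-r1302). Alternatives also used DESeq2 1.42.0 and limma 3.58.1. Fits were tested on simulated data. Some genes are not reported here.

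The ligands and the gene lists were chosen with earlier results of these data known. Named genes are the 10 ligands, at most 4 called members per list, those of smallest adjusted p, the 14 receptors of these ligands, protein-coding neighbours within 100 kb, and the 2 genes most like each ligand; the others are said to have been picked after their values were seen, as were the epithelial, macrophage, endothelial and mesenchymal markers with the highest or defining levels.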

Additional observations from a re-analysis of the deposited data

How the results depend on the processing

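Over the alternatives and left-out libraries, 427 values of the 10 ligands were recomputed: 371 kept their direction and side of the threshold, 28 lost a call, 15 gained one and 13 turned in sign, none of the 13 being a called result. With each library left out in turn, the ligands called numbered 0 to 0 in Hep_LPCs over NPC_LPCs, 2 to 6 in Bec_LPCs over NPC_LPCs and 2 to 8 in Bec_LPCs over Hep_LPCs, and the genes called 0 to 356, 115 to 2363 and 489 to 4908. A group cut to 1 library is assumed to vary like the others. For Hep_LPCs over NPC_LPCs, 95 genes became 449 with no low-count filter, 173 at 10 CPM in 2 libraries, 1499 with DESeq2's Wald test, 5 with limma-voom and 1274 in the fit of all 6 libraries, where ligands called were 3 (DESeq2) and 1 (fit of 6). For Bec_LPCs over NPC_LPCs, 1458 genes became 2897 with DESeq2, 2491 in the fit of 4 libraries and 657 among counted-alike genes, and limma-voom called 3 ligands in place of 5. Ccl7 was also lost there in the fit of 4 libraries (adjusted p = 0.0632) and among counted-alike genes (0.0525). In Bec_LPCs over Hep_LPCs limma-voom called 5 ligands in place of 7, without Ccl7 (0.0809) and Cxcl10 (0.105). Library size alone put 61.3% of calls higher, against 43.1% with TMM, and shifted the median of all genes to 0.17, against 0.01; in Bec_LPCs over Hep_LPCs these were 60.9% against 48.3% and 0.21 against 0.03. The ligands called were 5 and 7 in either case. The cause of these changes was not tested.

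Deviations of same-numbered replicates in different groups were correlated only weakly or not at all. The r was -0.0412 for Hep_LPCs with NPC_LPCs, 0.134 for Bec_LPCs with NPC_LPCs and -0.0709 for Bec_LPCs with Hep_LPCs. Among the ligands, replicate 1 was the higher in all 3 groups for Ccl2, Ccl7, Cxcl1 and Cxcl5, and replicate 2 for Cxcl10 and Cxcl12. For Ccl20, Cxcl2, Cxcl16 and Cx3cl1 the higher replicate differed between groups. The labels do not say whether replicates came from separate cultures or animals, and the numbers were not taken as a pairing. With the replicate number as a block, 126 genes were called in Hep_LPCs over NPC_LPCs, 770 in Bec_LPCs over NPC_LPCs and 3390 in Bec_LPCs over Hep_LPCs. Ligands called were 0, 5 and 7 in the same order. In Bec_LPCs over NPC_LPCs the block lowered the SE of Cxcl5 from 0.60 to 0.35 and of Ccl7 from 1.06 to 0.72. The SE of Ccl2, Cxcl1 and Cxcl10 also fell. It rose for Ccl20 (0.72 to 0.75), Cxcl2 (0.77 to 0.82), Cxcl12 (1.30 to 1.31) and Cx3cl1 (0.46 to 0.48). In Hep_LPCs over NPC_LPCs the block turned Ccl7 to 0.35, Cxcl10 to 0.86 and Cxcl12 to 0.45, and limma-voom to 0.41, 0.84 and 0.51. With each library left out in turn, log2 values in Hep_LPCs over NPC_LPCs ran over -1.07 to 1.87 for Ccl7, -0.97 to 2.83 for Cxcl10 (0.08 without Hep_LPCs replicate 1), -2.10 to 3.43 for Cxcl12 and -0.90 to 0.46 for Cx3cl1. Cx3cl1 in Bec_LPCs over NPC_LPCs ran over -0.32 to 1.07, the low end without NPC_LPCs replicate 1, and Cxcl16 in Bec_LPCs over Hep_LPCs over -0.67 to 0.25, the high end without Hep_LPCs replicate 1.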
